A study of Mus musculus with 10 samples.

Results

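Cell cycle and mitosis genes were followed in irradiated and unirradiated mouse fat. The group holds 32 genes, picked by symbol for their textbook roles in DNA replication and cell division, of 24421 gene symbols counted. All 32 had a row in each of the 10 libraries. Total RNA was sequenced from inguinal subcutaneous white fat of wild-type C57BL/6J mice, taken 70 days after the left hindlimb had received 33.3 Gy of electrons. A group of 4 libraries followed FLASH irradiation, in which the dose is delivered at an ultra-high rate, and 3 followed CONV irradiation at the rate of usual radiotherapy. Sham mice, which were not irradiated, gave 3 libraries. All libraries carry the same batch number, and the labels name no other allele, agent or transgene. Whether every library stands for its own mouse is not stated, and p-values therefore reflect only how much these samples vary, which may be technical.

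A dividing cell copies its DNA in S phase and separates the copies in mitosis. Cyclins switch on cyclin-dependent kinases at each step, licensing proteins load the replicative helicase on DNA, and mitotic kinases, kinesins and the spindle checkpoint then pull the chromosomes apart. Most of these genes are transcribed mainly in cycling cells, so their mRNA is widely used as a measure of proliferation. Mature fat cells do not divide, and in white fat the cycling cells are mainly progenitors, endothelial cells and immune cells. Lymphocytes of an activated lymph node, germinal centre B cells above all, divide fast, and the inguinal fat pad encloses a lymph node.

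Results are given with and without the libraries that held more than 100 CPM of Cr2 (counts scaled to 1e6 counts given to genes), the complement receptor of B cells and follicular dendritic cells. Cr2 was at 482 CPM in FLASH replicate 3 and at 447 CPM in CONV replicate 2, and at no more than 0.540 CPM in any of the other 8 libraries. The 2 Cr2-rich libraries came from different groups, and both came from irradiated mice. The sham group thus holds no Cr2-rich library, and with all 10 libraries Cr2 content and irradiation cannot be fully told apart.

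Gene counts were 22.4 M to 36.0 M (M, 1e6) per library, and 3 counts, the floor used for a gene not seen, equal 0.0833 to 0.134 CPM (counting error only). The summed level of 10 adipocyte markers was 14682 to 18777 CPM in the 8 libraries with little Cr2, so these libraries carried the labelled tissue. It was 4171 CPM in FLASH replicate 3 and 3840 CPM in CONV replicate 2. Summed skeletal muscle markers ran from 3.44 to 7785 CPM over the 8 libraries, with the highest value in CONV replicate 1. Macrophage markers ran from 779 to 2553 CPM, also highest in CONV replicate 1. Fibroblast and progenitor markers ran from 3195 CPM in CONV replicate 3 to 8454 CPM in CONV replicate 1. Keratinocyte markers were at 158 CPM in FLASH replicate 4 and at no more than 31.5 CPM in any other library.

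Summed over the 32 genes, the cell cycle transcripts were at 165, 191 and 139 CPM in sham replicates 1 to 3, with 163, 144, 850 and 141 CPM in FLASH replicates 1 to 4, whereas CONV replicates 1 to 3 held 143, 2055 and 152 CPM. FLASH replicate 3 and CONV replicate 2, the Cr2-rich pair, stood at 5.74-fold and 13.9-fold the median of the other 8 libraries. Those 8 lay within 139 to 191 CPM, and within them the sham, FLASH and CONV ranges overlapped. In edgeR 0 of the 32 genes passed an adjusted p of 0.05 in any comparison, with or without the pair. The background was 0.00% of 15266 genes in each comparison with all 10 libraries. With the other 8 it was 0.00% of 15252 genes in FLASH against sham, 0.0393% in CONV against sham and 0.0131% in FLASH against CONV. In bulk tissue, fewer cells of a type and less RNA per cell cannot be told apart, and this holds for every level below.

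**Figure D1:**
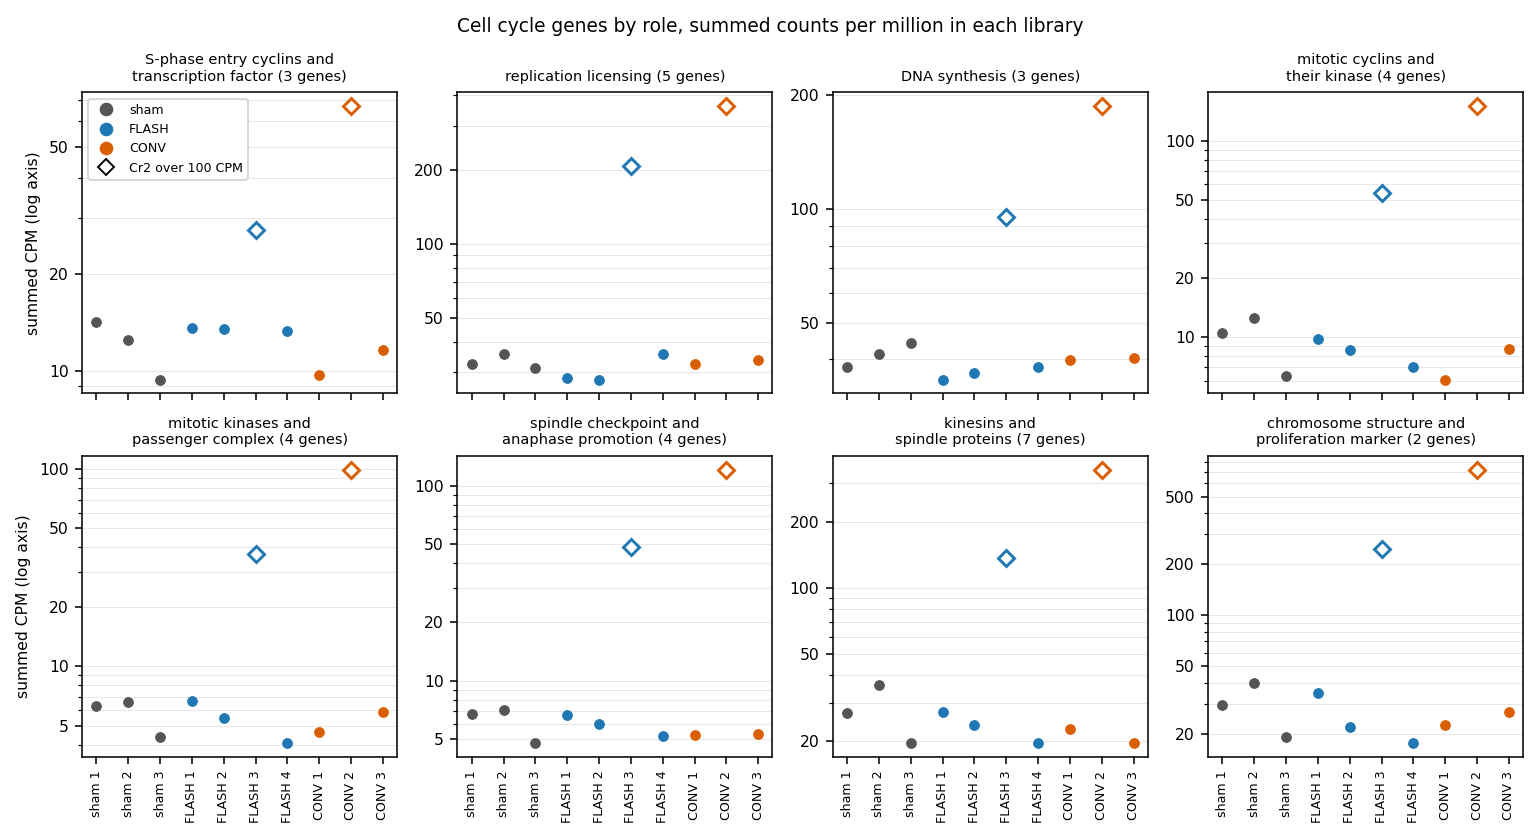
Summed CPM (log axis) of the 32 genes split by 8 roles, 1 point per library, coloured by group, with open diamonds for the 2 libraries over 100 CPM of Cr2. In every panel FLASH replicate 3 and CONV replicate 2 lie above the other 8 libraries, and CONV replicate 2 lies highest.

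Promoter letters are shown for the genes because most of them were high in the same 2 libraries. Cycling cells are known to time these genes through a small set of promoter elements: the CHR, bound by the MuvB complex, the CCAAT box, bound by NF-Y, and the E2F site. RefSeq's promoter table on GRCm38.p6 matched 26 of the 32 genes, with a window of 250 bases before to 50 bases after the annotated start. On either strand, a CHR, either TTTGAA or its variant TTCGAA, was found in 14 of 26 windows (53.8%) and in 19.2% of all 32851 promoters in the table. CCAAT was found in 21 of 26 (80.8%) against 37.4% of all, and an E2F site in 8 of 26 (30.8%) against 9.57%. The E2F search accepted TTCCCGC, the close variant TTCGCGC and, with other middle letters, the forms TTGCCGC as well as TTGGCGC, and such matches can overlap on opposite strands. CHR and CCAAT stood together in 14 of 26 (53.8%) against 7.52% of all. E2F letters were in 4 of the 5 licensing genes, and CHR letters in 4 of the 4 checkpoint genes and in 1 of the 5 licensing genes, Mcm2. A match of letters is a description, not a bound site. For each role the matched gene with the highest sham CPM was taken, which passes over Ccna2, Ccne2 and other genes without a matched window, and the 4 stretches below are those with 2 or more of the motifs upstream of the first annotated exon. They are written 5′ to 3′ on the gene's strand, with motif letters in capitals and the start base counted as 0.
Mcm6: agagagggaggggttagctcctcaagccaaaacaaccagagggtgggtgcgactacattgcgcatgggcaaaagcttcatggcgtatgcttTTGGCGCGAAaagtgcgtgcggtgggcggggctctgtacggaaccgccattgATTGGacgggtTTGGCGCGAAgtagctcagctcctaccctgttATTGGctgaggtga
Cdk1: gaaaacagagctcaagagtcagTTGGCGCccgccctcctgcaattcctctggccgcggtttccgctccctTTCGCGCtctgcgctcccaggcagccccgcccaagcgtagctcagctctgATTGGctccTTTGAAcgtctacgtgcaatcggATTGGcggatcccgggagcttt
Bub1b: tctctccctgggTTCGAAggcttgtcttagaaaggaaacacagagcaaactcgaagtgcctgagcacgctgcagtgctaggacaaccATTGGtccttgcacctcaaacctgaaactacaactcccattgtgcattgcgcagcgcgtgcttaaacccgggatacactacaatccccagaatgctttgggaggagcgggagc
Mki67: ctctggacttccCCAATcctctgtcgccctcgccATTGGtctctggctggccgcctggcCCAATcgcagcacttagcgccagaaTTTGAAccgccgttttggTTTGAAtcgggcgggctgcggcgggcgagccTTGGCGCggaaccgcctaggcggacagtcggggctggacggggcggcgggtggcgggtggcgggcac
The Mcm6 stretch (chr1:128359706-128359905, minus strand) has no CHR and holds TTGGCGCGAA in 2 places, each of them a pair of overlapping E2F matches on opposite strands, and CCAAT at -57 and -14, written as ATTGG on this strand. The Cdk1 stretch (chr10:69352939-69353112, minus strand) has E2F letters at -178 and -130 and a CHR at -71 between CCAAT boxes at -80 and -48. The Bub1b stretch (chr2:118598011-118598210, plus strand) has a CHR at -188 and CCAAT at -113. The Mki67 stretch (chr7:135716380-135716579, minus strand) has 3 CCAAT boxes at -188, -166 and -141, then CHR letters at -116 and -98 and an E2F site at -67. The stretches of Ccne1 and Pcna upstream of the first annotated exon held none of these letters, and those of Plk1 and Kif23 held CCAAT only. That of Pcna has only 66 bases, and the whole windows counted above also hold CCAAT at -87 for Pcna and CHR letters at 30 for Plk1 and at 2 for Kif23.

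Mki67 encodes Ki-67, a protein that coats mitotic chromosomes and is the usual stain for cycling cells. It was at 18.9, 26.7 and 13.1 CPM in sham replicates 1 to 3, 22.6, 13.5, 161 and 10.2 CPM in FLASH replicates 1 to 4, and 13.9, 489 and 16.6 CPM in CONV replicates 1 to 3. Among the 8 libraries with little Cr2 its highest value was in sham replicate 2 and its lowest in FLASH replicate 4, and the 3 groups overlapped. Their means were 19.5 ± 6.84 CPM (SD, n = 3) in sham, 15.4 ± 6.47 CPM (SD, n = 3) in FLASH and 15.2 ± 1.94 CPM (SD, n = 2) in CONV. The log2 fold change of FLASH against sham was -0.31 ± 0.37, with a 95% interval of -1.17 to 0.55 (SE from edgeR, adjusted p = 1.00), and that of CONV against sham was -0.30 ± 0.42, with a 95% interval of -1.27 to 0.67 (adjusted p = 0.793). With all 10 libraries the same fold changes were 1.23 ± 1.31, with a 95% interval of -1.73 to 4.20, and 2.91 ± 1.45, with a 95% interval of -0.38 to 6.20.

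Top2a, topoisomerase II alpha, untangles sister chromatids before anaphase. It was at 10.5, 13.0 and 5.98 CPM in sham replicates 1 to 3, 12.3, 8.54, 84.2 and 7.38 CPM in FLASH replicates 1 to 4, and 8.58, 233 and 10.2 CPM in CONV replicates 1 to 3. Sham replicate 2 again held the highest and sham replicate 3 the lowest of the 8 values outside the pair, so every irradiated value there fell inside the sham range. The fold change without the pair was -0.04 ± 0.34 (log2, SE) in FLASH and -0.01 ± 0.38 in CONV against sham. An exon of Top2a overlaps the short gene Gm23451 on the same strand, and the sources used here do not say how such reads were counted.

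Ccne1 and Ccne2 encode the cyclins E, which switch on Cdk2 at the start of S phase. Ccne1 was at 2.69, 2.01 and 1.38 CPM in sham replicates 1 to 3, 3.58, 3.01, 4.65 and 2.41 CPM in FLASH replicates 1 to 4, and 1.72, 13.8 and 3.51 CPM in CONV replicates 1 to 3. Ccne2 was at 7.85, 6.97 and 6.26 CPM in sham replicates 1 to 3, 6.19, 7.52, 6.83 and 7.94 CPM in FLASH replicates 1 to 4, and 5.63, 13.9 and 4.95 CPM in CONV replicates 1 to 3. CONV replicate 2 held the highest value of both, at 5.42-fold and 2.11-fold the median of the other 8 libraries, while FLASH replicate 3 was at 1.82-fold and 1.03-fold. Ccne2 was the only one of the 32 members for which FLASH replicate 3 did not lie above each of the other 8. Without the pair, both CONV values of Ccne2 lay below all 3 sham and all 3 FLASH values. The log2 fold change was -0.36 ± 0.19 for CONV against sham (adjusted p = 0.475) and 0.41 ± 0.19 for FLASH against CONV (adjusted p = 0.401), neither past the threshold. In edgeR with all 10 libraries, Ccne1 alone of the 32 had an unadjusted p under 0.05, in CONV against sham (1.49 ± 0.64, adjusted p = 0.607). Without CONV replicate 2 and FLASH replicate 3 the Ccne1 value was 0.44 ± 0.45 (adjusted p = 0.716). Foxm1, the forkhead factor that drives mitotic genes, lay between 1.76 and 3.80 CPM in the 8 libraries and at 16.1 and 39.1 CPM in the pair. Exons of Foxm1 overlap Gm44596 and Tex52 on the same strand and those of Ccne2 overlap Ints8 on the opposite strand, and the strand setting of the counting is not given.

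The licensing genes load the helicase on replication origins before S phase. Cdc6, the loader, was at 3.52, 2.91 and 2.90 CPM in sham replicates 1 to 3, 2.83, 2.27, 9.11 and 2.38 CPM in FLASH replicates 1 to 4, and 2.32, 19.4 and 2.99 CPM in CONV replicates 1 to 3. Mcm2, a helicase subunit, was at 5.16, 6.55 and 5.53 CPM in sham replicates 1 to 3, 4.86, 4.37, 41.9 and 4.32 CPM in FLASH replicates 1 to 4, and 4.42, 72.2 and 5.34 CPM in CONV replicates 1 to 3. Mcm6, another subunit of the same ring, was at 10.7, 12.0 and 10.5 CPM in sham replicates 1 to 3, 9.33, 9.48, 61.1 and 13.5 CPM in FLASH replicates 1 to 4, and 11.4, 107 and 10.9 CPM in CONV replicates 1 to 3. All 3 were high in the Cr2-rich pair, and Mcm2 reached 8.38-fold and 14.4-fold the median of the other libraries in FLASH replicate 3 and CONV replicate 2. Outside the pair, all 3 FLASH values of Cdc6 and of Mcm2 lay below all 3 sham values, while those of Mcm6 overlapped. The log2 fold change of Mcm2 was -0.32 ± 0.20, with a 95% interval of -0.77 to 0.14 (adjusted p = 1.00), and that of Cdc6 was -0.29 ± 0.25, with a 95% interval of -0.86 to 0.28 (adjusted p = 1.00). In CONV the same genes were at -0.17 ± 0.22 and -0.16 ± 0.28, and Mcm6 was at -0.02 ± 0.16 in FLASH and 0.07 ± 0.18 in CONV. Mcm3, with Mcm5 a further subunit of the ring, had both CONV values above all 3 sham values without the pair, and all 3 with it. It was at 6.02 to 9.33 CPM outside the pair and at 42.7 and 73.1 CPM in it, and Mcm5 at 4.58 to 6.39 CPM and at 51.2 and 90.3 CPM. The CONV to sham value of Mcm3 was 0.28 ± 0.20 without the pair (adjusted p = 0.575) and 1.80 ± 0.90 with it. Among all genes, every CONV value lay above every sham value for 9.89% and 7.11% in these same sets.

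Pcna, the sliding clamp of DNA polymerases, serves DNA synthesis and repair. It was at 28.9, 29.7 and 33.6 CPM in sham replicates 1 to 3, 26.9, 26.5, 58.9 and 28.5 CPM in FLASH replicates 1 to 4, and 28.7, 82.9 and 31.3 CPM in CONV replicates 1 to 3. Per kilobase of exon its sham mean was 12.8 CPM, the highest of the 32, ahead of Mcm6 at 2.37 and Mcm3 at 2.06, and the lowest was Bub1 at 0.213. Its coefficient of variation over the 8 libraries with little Cr2 was 7.93%, the lowest of the 32. The 3 FLASH values there lay below all 3 sham values and below both CONV values, but the nearest values were close. The Poisson 95% interval of FLASH replicate 4, 26.7 to 30.4 CPM (counting error only), covers sham replicate 1 and CONV replicate 1. The log2 fold change was -0.14 ± 0.11, with a 95% interval of -0.40 to 0.12, against sham (adjusted p = 1.00), and -0.18 ± 0.12, with a 95% interval of -0.47 to 0.11, against CONV (adjusted p = 0.591). In the Cr2-rich pair Pcna was at 2.04-fold and 2.88-fold the median of the rest. Rrm2, the regulated subunit of ribonucleotide reductase, was at 2.64, 3.52 and 2.28 CPM in sham replicates 1 to 3, 3.00, 3.11, 24.6 and 2.38 CPM in FLASH replicates 1 to 4, and 2.29, 84.9 and 2.12 CPM in CONV replicates 1 to 3. Rrm2 thus reached 9.82-fold and 33.9-fold in the same pair. Without the pair, all 3 FLASH values of Rrm2 lay above both CONV values (0.33 ± 0.29, adjusted p = 0.676). Tyms, thymidylate synthase, lay between 5.52 and 8.93 CPM outside the pair and at 11.6 and 19.7 CPM within it. Its processed copy Tyms-ps held 1 to 15 counts per library, so reads shared by both are uncertain.

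The mitotic cyclins and their kinase Cdk1 drive entry into mitosis. Cdk1 was at 3.12, 2.91 and 1.62 CPM in sham replicates 1 to 3, 2.91, 3.04, 9.47 and 2.38 CPM in FLASH replicates 1 to 4, and 1.11, 27.8 and 2.57 CPM in CONV replicates 1 to 3. Ccna2, cyclin A, which acts from S phase on, was at 4.81, 6.26 and 2.90 CPM in sham replicates 1 to 3, 4.00, 3.11, 26.9 and 3.13 CPM in FLASH replicates 1 to 4, and 2.83, 68.3 and 3.60 CPM in CONV replicates 1 to 3. Ccnb1, cyclin B1, was at 1.17, 1.60 and 1.00 CPM in sham replicates 1 to 3, 1.58, 1.36, 8.89 and 0.782 CPM in FLASH replicates 1 to 4, and 1.05, 31.0 and 1.29 CPM in CONV replicates 1 to 3. All 3 were highest in CONV replicate 2 and next in FLASH replicate 3, and the groups overlapped outside this pair. Cdk1 had its lowest value of all 10 libraries in CONV replicate 1. Without the pair its log2 fold change was 0.14 ± 0.41 in FLASH and -0.39 ± 0.47 in CONV, against -0.43 ± 0.33 and -0.47 ± 0.37 for Ccna2 and 0.02 ± 0.38 and -0.04 ± 0.42 for Ccnb1. The fourth gene, Ccnb2, lay between 0.750 and 1.66 CPM in the 8 libraries and at 8.98 and 23.3 CPM in the pair. Ccna2 shares exon sequence with Exosc9 on the other strand.

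Polo-like kinase Plk1 and the Aurora kinases Aurka and Aurkb act in mitosis, and Birc5 (survivin) sits with Aurkb in the chromosomal passenger complex. Plk1 was at 2.06, 1.92 and 1.66 CPM in sham replicates 1 to 3, 2.03, 0.910, 12.1 and 1.09 CPM in FLASH replicates 1 to 4, and 1.27, 34.5 and 1.25 CPM in CONV replicates 1 to 3. Aurkb was at 0.974, 1.34 and 0.830 CPM in sham replicates 1 to 3, 1.44, 1.64, 8.00 and 0.876 CPM in FLASH replicates 1 to 4, and 0.572, 22.2 and 1.64 CPM in CONV replicates 1 to 3. Without the pair both CONV values of Plk1 lay below all 3 sham values, with a log2 fold change of -0.52 ± 0.41 (adjusted p = 0.627), and the FLASH values overlapped both groups (-0.45 ± 0.36). Aurkb was spread from 0.572 CPM in CONV replicate 1 to 1.64 CPM in FLASH replicate 2, and its groups overlapped. Aurka was at 1.21 to 1.85 CPM in the 8 libraries and at 7.73 and 18.7 CPM in the pair, and Birc5 at 0.691 to 1.80 CPM and at 9.38 and 23.8 CPM. Plk1 overlaps the predicted gene Gm44985 on the opposite strand.

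Spindle checkpoint genes hold anaphase until every chromosome is attached, and Cdc20 and Ube2c then direct the anaphase-promoting complex. Bub1b, the checkpoint kinase BubR1, was at 3.41, 4.28 and 3.56 CPM in sham replicates 1 to 3, 3.55, 2.73, 28.0 and 3.44 CPM in FLASH replicates 1 to 4, and 3.31, 55.3 and 2.77 CPM in CONV replicates 1 to 3. Ube2c, the ubiquitin-conjugating enzyme of that complex, was at 0.859, 0.639 and 0.484 CPM in sham replicates 1 to 3, 0.888, 1.43, 3.75 and 0.625 CPM in FLASH replicates 1 to 4, and 0.445, 15.4 and 0.579 CPM in CONV replicates 1 to 3. Without the pair both CONV values of Bub1b lay below all 3 sham values (-0.25 ± 0.23, adjusted p = 0.683), and both CONV values of Ube2c lay below all 3 FLASH values (0.90 ± 0.51, adjusted p = 0.490). Ube2c overlaps the muscle gene Tnnc2 on the opposite strand. Its lowest value was in CONV replicate 1, where summed muscle markers were highest at 7785 CPM, and its highest value outside the pair in FLASH replicate 2, where they were at 1761 CPM. The part of Tnnc2 reads in Ube2c was not tested. Cdc20 was at 0.415 to 1.53 CPM in the 8 libraries and at 8.13 and 26.7 CPM in the pair. Among the 32 genes it had the largest ratios in the pair, at 12.4-fold and 40.8-fold the median of the rest. Its coefficient of variation outside the pair, 46.3% from 12 to 55 counts per library, was also the largest. Exons of Cdc20 overlap Elovl1 on the opposite strand. Bub1 was at 0.311 CPM in sham replicate 3, from 9 counts, with an exact Poisson 95% interval of 0.142 to 0.591 CPM that covers counting error only. Its other values outside the pair reached 1.35 CPM in CONV replicate 3, and the pair held 8.40 and 23.6 CPM.

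Kinesins and spindle proteins build the spindle and the cleavage furrow. Kif23, a kinesin of the central spindle, was at 5.01, 6.36 and 3.87 CPM in sham replicates 1 to 3, 3.89, 6.33, 18.0 and 2.66 CPM in FLASH replicates 1 to 4, and 4.99, 38.7 and 3.35 CPM in CONV replicates 1 to 3. Kif20a, a kinesin of cytokinesis, was at 2.52, 3.45 and 1.87 CPM in sham replicates 1 to 3, 3.22, 2.38, 12.5 and 2.09 CPM in FLASH replicates 1 to 4, and 2.83, 36.9 and 2.09 CPM in CONV replicates 1 to 3. Sham replicate 2 held the highest value outside the pair for each of the 7 genes of this role, and the groups of Kif23 and Kif20a overlapped. Their CONV to sham values were -0.25 ± 0.40 and -0.04 ± 0.35. Cenpf, a kinetochore protein, had both CONV values below all 3 sham values (-0.83 ± 0.39, with a 95% interval of -1.72 to 0.07), the smallest adjusted p of any member in that comparison, at 0.414. It was at 2.10 to 6.14 CPM in the 8 libraries and at 19.2 and 48.7 CPM in the pair. The other 4, Kif11, Cenpe, Tpx2 and Nusap1, lay between 1.41 CPM (Tpx2, FLASH replicate 4) and 5.66 CPM (Nusap1, sham replicate 2) in the 8 libraries. In the pair they were at 32.2 and 84.6 CPM (Kif11), 22.1 and 50.6 CPM (Cenpe), 18.1 and 49.0 CPM (Tpx2) and 14.6 and 36.7 CPM (Nusap1). Exons of Kif20a overlap Cdc23, and those of Nusap1 overlap Oip5, on the opposite strand.

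**Figure D2:**
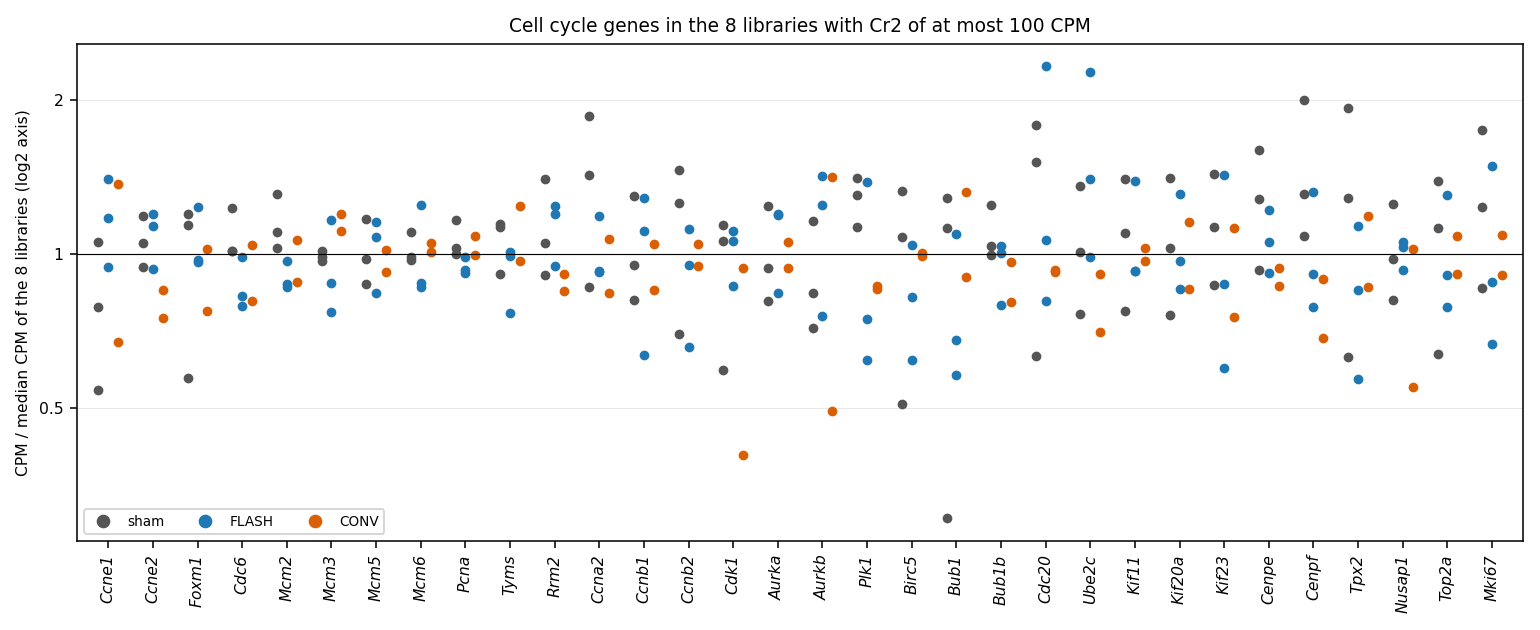
CPM of each of the 32 genes in the 8 libraries with Cr2 of at most 100 CPM, divided by that gene's median over the 8 (log2 axis), 1 point per library, coloured by group. The groups overlap for most genes, and the coefficient of variation, counting error included, runs from 7.93% for Pcna to 46.3% for Cdc20.

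Outside the pair no group held all of the high or all of the low values. Sham replicate 2 held the highest value for 17 of the 32 genes and sham replicate 3 the lowest for 9, so a sham library stood at either end. Sham replicate 2 led all 7 genes of the spindle, both Mki67 and Top2a and 3 of the 4 mitotic cyclin and kinase genes, but only 2 of the 5 licensing genes. The coefficient of variation over the 8 libraries had a median of 22.9% over the members, with 12.2% to 15.3% in the licensing genes and 14.5% to 46.3% in the checkpoint genes. These values include counting error, which is larger at low counts. Bub1, Cdc20 and Ube2c held 9 to 55 counts in these libraries, and the licensing genes 65 to 431. Counts of genes whose groups did not overlap were small. In FLASH against sham, 3 of 32 members had every FLASH value below every sham value (Cdc6, Mcm2 and Pcna), beside 5.33% of all genes tested, and 0 had every value above, beside 4.10%. In CONV against sham 4 lay below (Ccne2, Plk1, Bub1b and Cenpf), beside 15.4%, and 1 above (Mcm3), beside 9.89%. In FLASH against CONV 3 lay above (Ccne2, Rrm2 and Ube2c), beside 14.4%, and 1 below (Pcna), beside 10.5%.

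Without the pair, 0 of the 32 genes had an unadjusted p under 0.05 in edgeR in any of the 3 comparisons, beside 2.52%, 13.3% and 13.7% of all genes in FLASH and in CONV against sham and in FLASH against CONV. DESeq2 and limma voom called 0 of the 32 as well. In FLASH against sham 14 of the 32 fold changes were above 0, with a median of -0.05 (log2), beside 48.5% and -0.01 over all genes tested. In CONV against sham 10 were above 0, with a median of -0.15, beside 51.3% and 0.01, and in FLASH against CONV 20 were above 0, with a median of 0.05, beside 46.9% and -0.02. Within CONV against sham, the values of all 7 spindle genes and all 4 mitotic cyclin and kinase genes were below 0, none past the test. Mki67 and Top2a were below 0 too. Above 0 were 3 of the 5 licensing genes, 3 of the 4 mitotic kinase genes with Birc5 and 2 of the 3 DNA synthesis genes. The same held for 1 of the 4 checkpoint genes and 1 of the 3 cyclins E with Foxm1. The precision limits what these libraries can show. The 95% interval lay within a 2-fold change either way for 18, 15 and 17 of the 32 members in FLASH and in CONV against sham and in FLASH against CONV, and within 4-fold for 32, 32 and 30. CONV had 2 libraries in these fits. Single libraries moved the counts of fold changes above 0: without sham replicate 3 they were 3 in FLASH and 6 in CONV against sham, without sham replicate 2 they were 16 and 17, and without CONV replicate 1 or 3 the CONV count was 19 or 5. FLASH against sham was 8 without FLASH replicate 1, and FLASH against CONV was 11 without it or without CONV replicate 1. The number of all genes called in CONV against sham was 6, and 1134 without CONV replicate 1, while that of members stayed at 0.

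With all 10 libraries the median fold changes were larger, and so were their errors. In FLASH against sham 30 of 32 members had a value above 0, with a median of 0.94, and in CONV against sham 32 of 32, with a median of 2.20. Over all genes 54.1% and 56.9% were above 0, with medians of 0.03 and 0.08. In FLASH against CONV the value was below 0 for 32 of 32, with a median of -1.21, beside 44.2% above 0 and a median of -0.04 over all genes. The 3 comparisons share libraries, so these counts are not independent. Of the 32 genes 0, 1 and 0 had an unadjusted p under 0.05, beside 0.648%, 5.82% and 2.97% of all genes. The smallest adjusted p of a member was 0.998 in FLASH against sham, 0.607 in CONV against sham and 0.999 in FLASH against CONV. Groups that did not overlap were found for 1 member, Mcm3, above sham in CONV. The share of all genes was 7.11% in that direction and 9.22% in the other, 2.12% and 2.32% above and below sham in FLASH, and 1.37% and 0.911% above and below CONV in FLASH. The median SE over members was 1.10, 1.19 and 1.06, against 0.33, 0.37 and 0.37 without the pair. The members' median biological coefficient of variation was 0.916 with the pair and 0.317 without it. The median over all genes tested was 0.392 and 0.213. Single libraries set the direction: without FLASH replicate 3 the FLASH to sham median was -0.05, and without CONV replicate 2 the CONV to sham median was -0.14. Counts of members at an unadjusted p under 0.05 in edgeR moved too. Without FLASH replicate 3 they were 17 in CONV against sham and 19 in FLASH against CONV. In CONV against sham they were 19 without CONV replicate 1 and 16 without CONV replicate 3. No member passed the adjusted threshold, and the share of all genes in these fits was not counted.

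**Figure D3:**
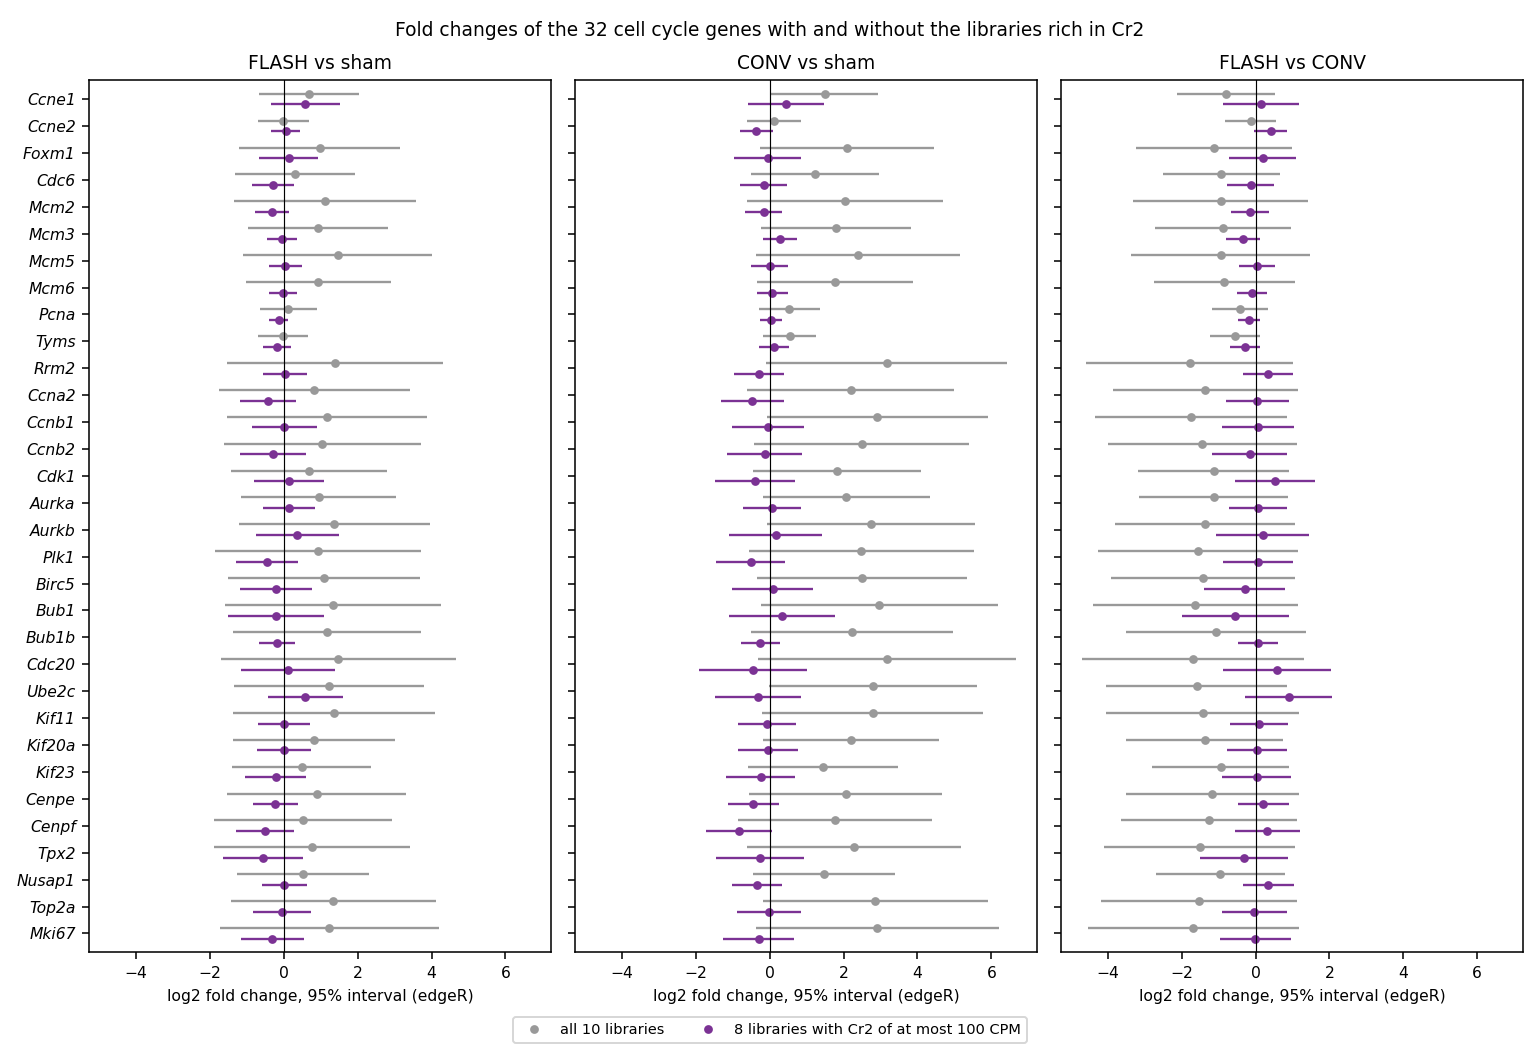
Log2 fold change of each of the 32 genes with its 95% interval from edgeR, for FLASH and CONV against sham and for FLASH against CONV, in grey with all 10 libraries and in purple with the 8 libraries of at most 100 CPM of Cr2. Grey points lie above 0 for 30 and 32 of the 32 genes in the first pair of panels and below 0 for 32 in the last, with wide intervals. Purple points lie on both sides of 0 in each panel.

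The Cr2-rich pair differed from each other as well as from the rest. FLASH replicate 3 lay above each of the other 8 libraries for 31 of 32 members and CONV replicate 2 for 32 of 32. Both lay above all 8 for 31 of 32 members, which was also true of 41.7% of the 14029 genes with a median of at least 0.5 CPM in the other 8. CONV replicate 2 held 2.42 times the summed level of FLASH replicate 3, with single members from 1.41-fold for Pcna to 4.11-fold for Ube2c and a median of 2.54-fold. The ratio was over 2 for 25 of 32 members and for 3.07% of the 14029 genes, whose median ratio was 0.980. As sums it was 2.43 for the cyclins E with Foxm1, 1.76 for the licensing genes, 1.97 for DNA synthesis, 2.77 for the mitotic cyclins with Cdk1, 2.67 for the mitotic kinases with Birc5, 2.51 for the checkpoint genes, 2.53 for the spindle genes and 2.95 for Mki67 with Top2a. Each ratio compares 1 library with 1 library, so it has no replicate check.

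**Figure D4:**
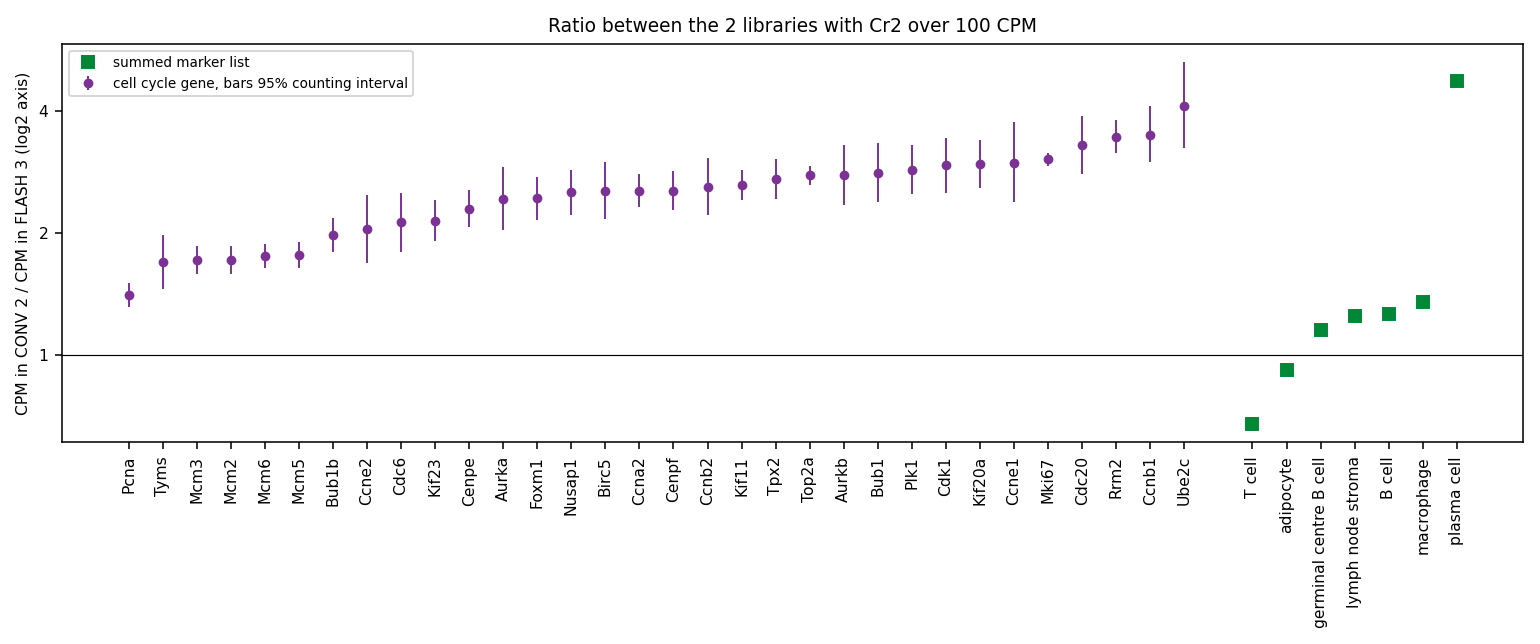
Ratio of CPM in CONV replicate 2 to CPM in FLASH replicate 3 (log2 axis) for each of the 32 genes in purple, with 95% intervals that cover counting error only, and for summed marker lists in green. The genes run from 1.41 for Pcna to 4.11 for Ube2c, while B cell markers are at 1.26 and plasma cell markers at 4.72.

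Most lymphoid markers were high in the same 2 libraries as the cell cycle genes. The 10 B cell markers summed to 10.1 to 25.5 CPM in the 8 libraries and to 2572 and 3251 CPM in FLASH replicate 3 and CONV replicate 2. T cell markers summed to 4.32 to 10.4 CPM in the 8 and to 838 and 567 CPM in the pair, and germinal centre B cell markers to 167 to 311 CPM and to 505 and 584 CPM. Of the 10 germinal centre markers 8 lay above all 8 libraries in each of the pair, and Elf1 held the most of the sum, at 239 and 256 CPM. Bcl6, at 90.2 and 113 CPM against 42.1 to 183 CPM, and Fas, at 29.7 and 28.4 CPM against 26.4 to 33.4 CPM, lay within the range of the 8. Among these lymphoid lists the widest gap between the 2 libraries was in the 6 plasma cell markers, at 140 to 304 CPM in the 8 and at 524 and 2475 CPM in the pair. Jchain, which links polymeric antibodies, was at 302 and 1451 CPM, and Mzb1, a chaperone of antibody-secreting cells, at 33.7 and 244 CPM. Xbp1, at 134 to 299 CPM in the 8, was at 162 CPM in FLASH replicate 3, within that range, and at 630 CPM in CONV replicate 2. Of the 6 plasma cell markers 5 lay above all 8 in FLASH replicate 3 and 6 in CONV replicate 2. The lymph node stroma list includes Cr2, which chose the pair. Its 7 other markers summed to 24.4 to 97.8 CPM in the 8 and to 197 and 404 CPM in the pair. Not all of them were high there. Lyve1, at 43.7 and 62.8 CPM, lay within its range of 18.1 to 82.8 CPM in the 8. Ccl21a and Ccl19 were at 0 in every library, so they do not bear on the pair. Whether their RNA was absent or their reads were not counted was not tested. The part of these cells in the cell cycle levels was not tested.

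Further genes of the same pathways, chosen by function, were read beside the members. Of 35 other replication genes none passed the test in any comparison in either direction, nor did any of 56 other mitosis genes, 22 genes of the D cyclin and pocket protein switch, or 6 inhibitors tested. At an unadjusted p under 0.05 in edgeR without the pair there were 1, 1 and 3 replication genes, 0, 0 and 1 mitosis genes, 0, 1 and 2 genes of the D cyclin switch and 0, 1 and 1 inhibitors in FLASH and in CONV against sham and in FLASH against CONV. The shares of all genes were 2.52%, 13.3% and 13.7%. In FLASH replicate 3 and CONV replicate 2 the other mitosis genes were at a median of 5.99-fold and 11.8-fold the median of the other 8 libraries, with 51 and 55 of 56 above all 8. Other replication genes were at 3.25-fold and 4.99-fold, with 31 and 34 of 35 above all 8. Genes of the D cyclin switch, which senses growth signals ahead of S phase, were at 1.51-fold and 2.20-fold, with 14 and 18 of 22 (63.6% and 81.8%) above all 8. Of the 14029 genes with a median of at least 0.5 CPM in the 8, 45.3% and 45.8% lay above all 8 in FLASH replicate 3 and CONV replicate 2, at medians of 1.17-fold and 1.18-fold. The list counts above have no such minimum. With it, 90.4% and 98.1% of the other mitosis genes lay above all 8, at medians of 5.99-fold and 11.4-fold. For the other replication genes it was 88.2% and 97.1%, at 3.13-fold and 4.88-fold. The 7 inhibitors, without the minimum, were at medians of 0.753-fold and 0.510-fold, but the list was split. In each of the 2 libraries 3 of the 7 lay above all 8.

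Without the pair, the smallest p of each list stayed short of the threshold. In CONV against sham these were Cdk6, the kinase partner of the D cyclins (0.74 ± 0.19, adjusted p = 0.165), Kif18b, a kinesin (-1.33 ± 0.65, adjusted p = 0.432), and Gins4 of the replicative helicase (-0.32 ± 0.13, adjusted p = 0.366). Cdk6 was at 7.05, 8.47 and 9.58 CPM in sham replicates 1 to 3, 8.63, 7.03, 34.3 and 7.41 CPM in FLASH replicates 1 to 4, and 12.4, 34.9 and 14.1 CPM in CONV replicates 1 to 3. Both CONV values of Cdk6 outside the pair lay above every sham value and every FLASH value outside it. In FLASH against CONV they were Cdk6 again (-0.82 ± 0.19, adjusted p = 0.154), Pole, a replicative polymerase (0.65 ± 0.16, adjusted p = 0.163), and the mitotic kinase Nek2 (1.36 ± 0.53, adjusted p = 0.318). In FLASH against sham they were the S-phase factor E2f1 (0.44 ± 0.26), the phosphatase Cdc25b (-0.45 ± 0.20) and the polymerase alpha subunit Pola2 (0.26 ± 0.11), each with an adjusted p of 1.00. With all 10 libraries the smallest p of the 3 lists in CONV against sham belonged to the repressor E2f7 (0.70 ± 0.26), the phosphatase Cdkn3 (1.73 ± 0.67) and the origin protein Orc1 (2.99 ± 1.29), each with an adjusted p of 0.607. In FLASH against CONV they were Tfdp1 (-0.46 ± 0.18), the dimer partner of E2F, the furrow protein Anln (-0.55 ± 0.25) and Gins1 (-0.97 ± 0.42), at 0.999. In FLASH against sham they were Cdk2 (0.44 ± 0.27), Cks2 (1.21 ± 0.87), a small Cdk-binding protein, and Pola2 (0.42 ± 0.26), at 0.998.

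Cyclin-dependent kinase inhibitors stop the cycle, and several accumulate in arrested or senescent cells. Cdkn1a (p21), the main p53 target that halts cells after DNA damage, was at 28.1, 29.0 and 20.7 CPM in sham replicates 1 to 3, 52.7, 39.7, 18.1 and 18.2 CPM in FLASH replicates 1 to 4, and 24.2, 13.3 and 13.3 CPM in CONV replicates 1 to 3. FLASH replicates 1 and 2 held the highest values and FLASH replicates 3 and 4 were below all 3 sham values, so the FLASH group spanned the sham range. The FLASH to sham value without the pair was 0.55 ± 0.39 (adjusted p = 1.00), and the CONV to sham value was -0.44 ± 0.45 (adjusted p = 0.713). Cdkn2b (p15), which blocks Cdk4 and Cdk6, was at 6.02, 7.22 and 6.36 CPM in sham replicates 1 to 3, 5.08, 6.09, 4.56 and 6.22 CPM in FLASH replicates 1 to 4, and 4.04, 1.96 and 4.09 CPM in CONV replicates 1 to 3. All 3 CONV values of Cdkn2b lay below every sham value. The log2 fold change was -0.62 ± 0.19 without the pair (adjusted p = 0.219) and -0.94 ± 0.39 with it (adjusted p = 0.607). The threshold was not met in either set. With all 10 libraries the inhibitor with the smallest p was Cdkn2d in FLASH against sham (0.45 ± 0.39) and Cdkn1a in FLASH against CONV (0.97 ± 0.49), both far from it at 0.998 and 0.999 (adjusted p).

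Cdkn2a (p16 and p19Arf), a common marker of senescence, was at 0.0350 to 0.160 CPM in the 8 libraries, near the floor of 3 counts, and at 1.21 and 1.49 CPM in the Cr2-rich pair. It did not pass the filter on low counts and was not tested. Cdkn2c (p18) was at 107, 92.2 and 99.8 CPM in sham replicates 1 to 3, 103, 112, 31.5 and 80.9 CPM in FLASH replicates 1 to 4, and 96.9, 38.1 and 85.3 CPM in CONV replicates 1 to 3. The Cr2-rich libraries held its lowest values of the 10, as they did for Cdkn1c (p57), at 5.99 and 4.47 CPM against 10.1 to 24.2 CPM in the other 8. Cdkn1b (p27) was highest in the same 2 libraries, at 138 and 115 CPM against 44.6 to 80.8 CPM. Cdkn2d (p19) was highest there too, at 18.2 and 19.3 CPM against 5.91 to 8.72 CPM.

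**Figure D5:**
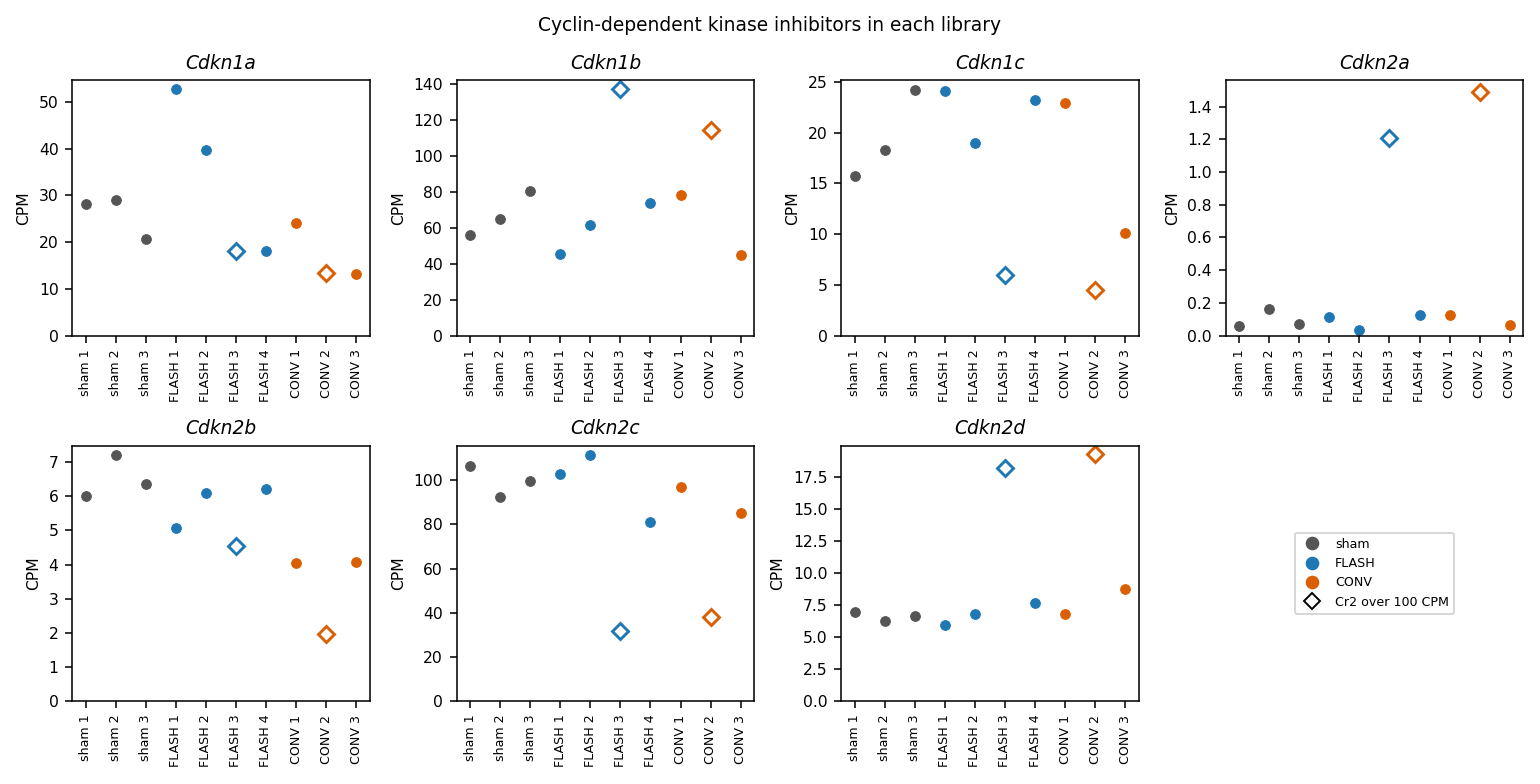
CPM of the 7 cyclin-dependent kinase inhibitors, 1 panel per gene with its own axis from 0, 1 point per library, coloured by group, with open diamonds for the 2 Cr2-rich libraries. Cdkn1a is highest in FLASH replicates 1 and 2, and the CONV points of Cdkn2b lie below the sham points. Cdkn2c and Cdkn1c are lowest in the Cr2-rich pair, while Cdkn1b, Cdkn2a and Cdkn2d are highest there.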

How the data were processed

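Each library has 1 deposited file of raw counts by gene symbol, which the authors did not normalize. The submitters' processing notes name kallisto 0.5.0 and the build mm10, and per the labels' protocols the libraries were stranded total RNA depleted of ribosomal RNA. For the aligner, the strand setting and the annotation, no statement is given in the sources used here. Entries for reads given to no gene were left out. They held 52.0% to 69.6% of all counts in a library. The highest shares were in the Cr2-rich pair, at 69.6% in FLASH replicate 3 and 66.7% in CONV replicate 2. Printed levels are CPM of gene counts (22.4 M to 36.0 M per library, M being 1e6).

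Tests used edgeR 4.0.16 in R 4.3.3, on all genes kept by filterByExpr (15266 with 10 libraries, 15252 with 8), with TMM scaling, a robust quasi-likelihood fit of all groups together, two-sided contrasts and Benjamini-Hochberg adjustment over all genes of a contrast. Fold changes are log2 values on the TMM scale. The SE is the fold change over the root of F, and 95% intervals use the t quantile. The threshold was an adjusted p of 0.05. Alternatives were other scalings and filters, DESeq2 1.42.0, limma 3.58.1 (voom, with and without quality weights), a replicate block, fits of only the 2 groups compared, a Cr2 term, and leaving out each library. The fits were also run on simulated counts with set changes. The simulation held no libraries standing apart like the Cr2-rich pair, so it is no measure of what these libraries could show. Libraries of 1 group did not repeat each other (chi-square per degree of freedom of 41.9 or more for any pair).

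The 32 genes, the lists and the Cr2 limit were chosen with earlier results of these data known. Full values are given for Mki67, Top2a, Cdk1, Pcna and Mcm2 and for the genes with the highest and lowest sham CPM of each of 8 roles. All 7 inhibitors are named too and, where no gene of another list passed, the one with the smallest p per list and comparison. The symbols Sgo1, Sgo2a and Knl1 of the mitosis list and the markers Trac and Epb42 had no row. Gene overlaps and exon lengths come from GENCODE M21 on GRCm38, promoters from RefSeq.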

Additional observations from a re-analysis of the deposited data

Results flagged for a closer look

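In the FLASH group, FLASH replicate 3 lay apart from the other 3 libraries by Dixon's criterion for 4 samples in the summed level of the 32 genes, at 850 CPM, and in 14 of the 18 genes given in full. Chance flags about 1 in 20 groups, and these genes are not independent of each other. Among the licensing genes it stood at 9.11 CPM in Cdc6, 41.9 CPM in Mcm2 and 61.1 CPM in Mcm6, and among the DNA synthesis genes at 58.9 CPM in Pcna and 24.6 CPM in Rrm2. It was at 26.9 CPM in Ccna2, 8.89 CPM in Ccnb1 and 9.47 CPM in Cdk1, the genes that bring cells into mitosis. The kinases Aurkb and Plk1 were at 8.00 and 12.1 CPM there, Bub1b at 28.0 CPM and Kif20a at 12.5 CPM. Top2a was at 84.2 CPM and Mki67 at 161 CPM. Ccne1, Ccne2, Ube2c and Kif23 did not meet the criterion. The same library held 482 CPM of Cr2. The sham and CONV groups have 3 libraries each and were not tested in this way, so CONV replicate 2, at 2055 CPM in the same sum, was not examined.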

How the results depend on the processing

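The count of the 32 genes called was 0 in each comparison and both sets of libraries under every alternative run. Without the Cr2-rich pair edgeR called 0, 6 and 2 genes in all in FLASH and in CONV against sham and in FLASH against CONV, with 385, 2022 and 2082 at an unadjusted p under 0.05. DESeq2 called 4, 661 and 667, a fit of only the 2 groups compared called 0 in each comparison with CONV, and fits without the low-count filter called 5 in FLASH against CONV. Leaving out 1 library gave 0 to 1134 in CONV against sham and 0 to 1025 in FLASH against CONV, both highest without CONV replicate 1, where 1 CONV library remains and its spread is taken from the other groups. With all 10 libraries edgeR called 0 in each, with 99, 889 and 453 at an unadjusted p under 0.05. There DESeq2 called 66 in CONV against sham and 40 in FLASH against CONV, and limma voom with quality weights 1 in each. Leaving out 1 library gave 0 to 1 in both. The cause of these differences was not tested.

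With all 10 libraries the members' median log2 fold changes of 0.94, 2.20 and -1.21 were 0.49, 1.19 and -0.60 with limma voom, -0.13, 0.03 and -0.23 with its quality weights and -0.19, 0.14 and -0.35 with a Cr2 term. Without CONV replicate 2 FLASH against CONV had a median of 1.11 and 31 of 32 values above 0. The labels number replicates in each group but name no pairs, so the numbers were not taken as pairs. Deviations of same-numbered libraries from group means had r of -0.759 to 0.260 with 10 libraries and -0.601 to 0.475 with 8. These values do not settle pairing. With 10 libraries the Cr2-rich pair carries different numbers, and with 8 the deviations of the 2 CONV libraries mirror each other. With the replicate block, 0 genes were called in every comparison and set, and members' medians were 1.21, 1.47 and -0.27 with 10 libraries and -0.14, 0.02 and 0.03 with 8. The 2 CONV libraries limit what the set of 8 can show.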
